A study of Rattus norvegicus with 21 samples.

Results

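The genes described here are 7 genes of leukocytes, leukocyte recruitment and complement in the rat renal cortex. They were chosen by name, with earlier results of these data known, from the 26404 Ensembl genes counted in the files. They are Ccl2 (ENSRNOG00000007159), Icam1 (ENSRNOG00000020679), Vcam1 (ENSRNOG00000014333), C3 (ENSRNOG00000046834), Cd68 (ENSRNOG00000037563), Cd74 (ENSRNOG00000018735) and Ptprc (ENSRNOG00000000655). All 7 were found on the chromosome given for them. RNA-seq libraries of total RNA, depleted of ribosomal RNA, came from the renal cortex of 37-week-old rats. The groups were Sprague Dawley healthy control rats (SD, n=6), sham-operated Zucker Diabetic Sprague Dawley rats (SHAM, n=7 of 9 deposited) and Zucker Diabetic Sprague Dawley rats that lost weight by diet and received medical therapy (DMT, n=6, called medical bypass in the labels). Medical therapy combined ramipril, metformin, liraglutide, rosuvastatin and fenofibrate.

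Zucker Diabetic Sprague Dawley (ZDSD) rats are an inbred model of obesity and type 2 diabetes with intact leptin signalling. According to the study's methods all rats were male and ate the same chow, and SHAM and DMT-treated rats alike received insulin before a sham laparotomy. SD rats are of another strain and are not described as operated, so strain, diabetes and surgery cannot be told apart in SHAM vs SD. Diet and the 5 drugs cannot be told apart in DMT vs SHAM. The labels mark SD and SHAM libraries, but not DMT libraries, as re-analyses of earlier samples, and a preparation or sequencing batch is not given, so a batch that follows this division cannot be told apart from DMT.

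The recruitment of leukocytes to the kidney starts with chemokines such as Ccl2, which draws monocytes through the receptor Ccr2. Icam1 and Vcam1 are adhesion molecules on activated endothelium and tubular epithelium, and they bind the integrins of leukocytes. Ptprc encodes CD45, the phosphatase on the surface of all nucleated haematopoietic cells, Cd68 is a glycoprotein of macrophage lysosomes, Cd74 is the invariant chain that escorts MHC class II molecules, and C3 is the central component of complement, made by the liver and by tubular cells.

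Depth was 14502127 to 27597901 counts in the 19 libraries used, and 3 counts equalled 0.109 to 0.207 CPM (counts per 1000000 counts of the library). SHAM rats 343 and 348 had 121511 and 101534 counts and were left out, since 3 counts equalled 24.7 and 29.5 CPM there, and Cd68 had 0 counts in both. The files hold Ensembl identifiers without symbols, and 0 identifiers matched the gene table at hand. Other genes of these pathways and the defining markers of kidney and leukocyte cell types were therefore not analysed here, and the tissue label was not checked against them.

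In the rn5 build the genes lie on 6 chromosomes, and none overlapped another counted gene on either strand. Ccl2 spans chr10:69047091-69048889 on the plus strand with 780 exonic bases, and Cd68 spans chr10:56014365-56016243 on the minus strand with 1199 exonic bases. Icam1 lies at chr8:22092135-22103927 (plus strand, 2632 exonic bases), Vcam1 at chr2:237158195-237177632 (minus strand, 2954), C3 at chr9:8728465-8754412 (plus strand, 5073), Cd74 at chr18:55305848-55315242 (plus strand, 1414) and Ptprc at chr13:60094039-60205338 (minus strand, 5050). Counts were of exonic fragments only.

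The promoters of the adhesion genes Icam1 and Vcam1, textbook targets of NF-kappaB, are shown as a description. Neither gene was called in any comparison, but the ratio of Icam1 to Vcam1 was higher in DMT-treated rats than in both other groups. A link between these motifs and expression was not tested. The 250 bases before each transcription start were taken from RefSeq in the GRCr8 build, a later build than that of the counts. Capitals mark matches to the NF-kappaB motif (GGG, any 5 bases, then CC) on either strand. Icam1 is at chr8:27829595-27829844 on the plus strand, and Vcam1 is at chr2:206742784-206743033 on the minus strand.
Icam1: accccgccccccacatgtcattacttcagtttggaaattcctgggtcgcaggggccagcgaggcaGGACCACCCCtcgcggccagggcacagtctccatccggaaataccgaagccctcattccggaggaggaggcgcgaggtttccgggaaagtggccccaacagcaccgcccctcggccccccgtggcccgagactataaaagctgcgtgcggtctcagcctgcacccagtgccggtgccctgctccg
Vcam1: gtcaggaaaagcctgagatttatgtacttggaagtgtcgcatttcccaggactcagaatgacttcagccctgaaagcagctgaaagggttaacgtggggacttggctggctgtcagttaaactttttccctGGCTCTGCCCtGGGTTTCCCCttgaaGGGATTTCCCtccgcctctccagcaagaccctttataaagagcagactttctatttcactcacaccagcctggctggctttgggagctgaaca
Icam1 held 1 match, from 185 to 176 bases before the start, and Vcam1 held 3, of which the nearest lay from 93 to 84 bases before the start. Both held a TATA box (TATAAA), as did 12.9% of the 33469 promoters in the table. The NF-kappaB motif was in 4 of the 6 promoters found for these genes (Icam1, Vcam1, C3 and Cd74) and in 42.3% of all promoters. It was in neither Cd68 nor Ptprc, and Ccl2 had no entry. The interferon response motif (TTTC, any 2 bases, then TTTC) was in the Vcam1 promoter and in 3.41% of all promoters, the CCAAT box (CCAAT) was in Cd68, Cd74 and 34.0% of all promoters, and the AP-1 motif TGANTCA was in Cd68 and 6.34% of all promoters. Only exact matches to these patterns were counted, so variants such as tggaaattcc in the Icam1 sequence are not marked. The numbers of matches are therefore not the full NF-kappaB content of a promoter. These matches are letters in a window and were not tested as binding sites.

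Levels of the 7 genes, as TMM-normalized CPM per kilobase of exon averaged over 19 rats, spanned a wide range. Cd74 was highest at 235, above 97.6% of the 14664 genes tested. Icam1 followed at 13.3, C3 at 8.33, Vcam1 at 6.50, Ptprc at 4.40, Ccl2 at 3.35 and Cd68 at 3.11, the last above 23.7% of genes tested. Cd74 exceeded Icam1 in every rat. Icam1 exceeded C3 in all 6 SD rats, in 5 of 7 SHAM rats and in 5 of 6 DMT-treated rats, with overlapping ranges in both ZDSD groups. This order is of the mean over all rats and differed by group, since C3 exceeded Vcam1 in 1 of 6 SD rats, 5 of 7 SHAM rats and 3 of 6 DMT-treated rats. In SD rats the mean of C3 (5.12) was below those of Vcam1 (6.88) and Ptprc (5.49). The neighbours from C3 down to Cd68 overlapped in all 3 groups, except Vcam1 and Ptprc, which did not overlap in DMT-treated rats. Ccl2 and Cd68 differed in order from rat to rat, with Ccl2 higher in 3 of 6 SD rats, 4 of 7 SHAM rats and 4 of 6 DMT-treated rats.

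**Figure D1:**
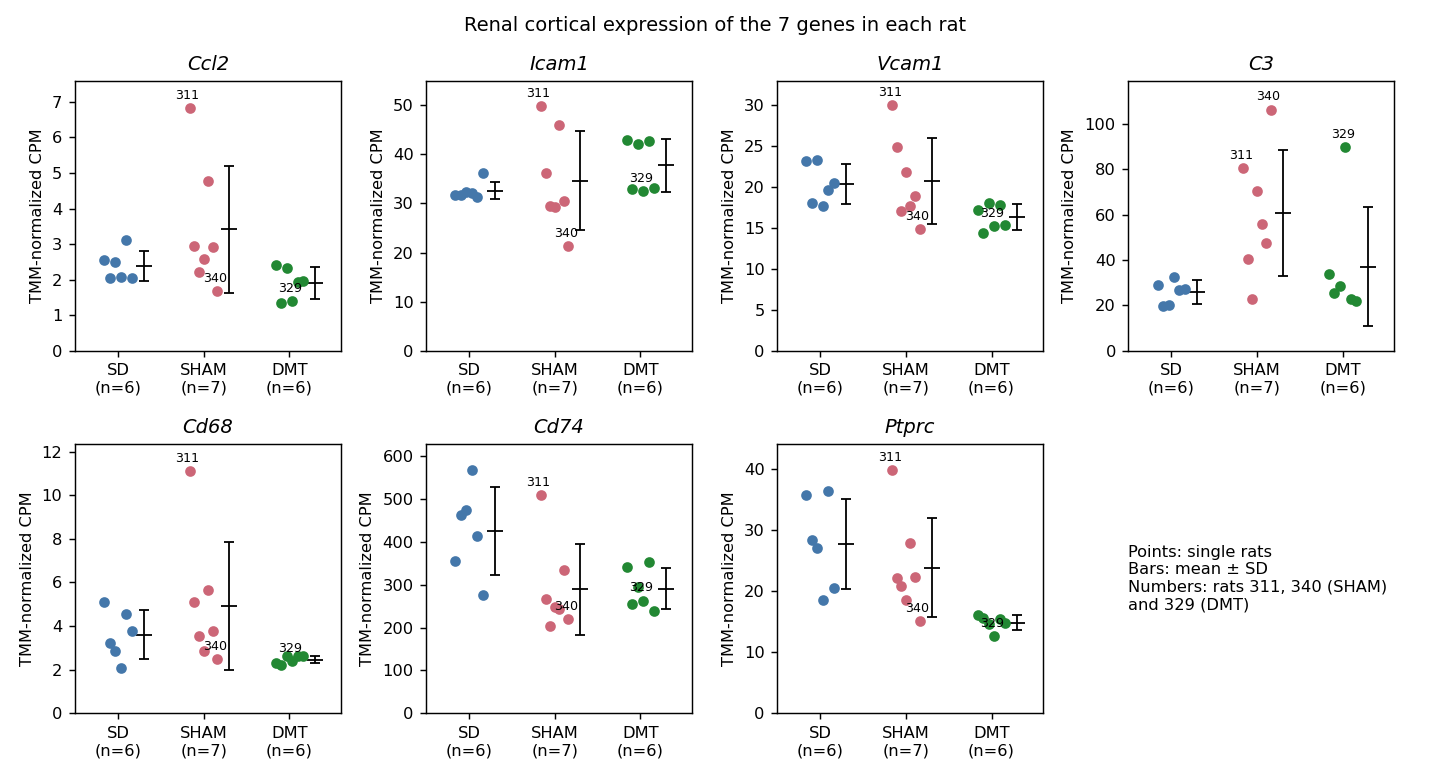
TMM-normalized CPM (y axis, from 0) of the 7 genes in each rat by group, with mean ± SD. DMT-treated rats lay below all SD rats for Ptprc, SHAM rat 311 was the highest SHAM rat for every gene but C3, and DMT-treated rat 329 stood apart for C3.

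The leukocyte gene Ptprc was lower in DMT-treated rats than in both other groups. Ptprc ranged from 18.6 to 36.3 CPM (median 27.7) in SD rats, from 15.1 to 39.8 CPM (median 22.1) in SHAM rats and from 12.6 to 16.1 CPM (median 15.03) in DMT-treated rats. All 6 DMT-treated rats were thus below every SD rat, while 1 SHAM rat, rat 340, lay within the DMT range. The means were 27.7 ± 7.39, 23.8 ± 8.06 and 14.8 ± 1.24 CPM (SD, n=6, 7 and 6).

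Ptprc fell in DMT vs SHAM, with a log2 fold-change of -0.68 (SE 0.19, fold 0.623, edgeR quasi-likelihood test, adjusted p=0.0156). It also fell in DMT vs SD, with a log2 fold-change of -0.90 (SE 0.19, fold 0.536, edgeR adjusted p=0.00165). In SHAM vs SD its log2 fold-change was -0.22 (SE 0.18, 95% interval -0.60 to 0.17, edgeR adjusted p=0.374), and without SHAM rat 311 it was -0.39 (adjusted p=0.0597). Here and below, p-values were adjusted by Benjamini-Hochberg over the 14664 genes tested, and a call needed an adjusted p under 0.05 together with a fold-change of 1.3 or more in either direction. By two-sided exact permutation tests of Ptprc alone, p was 0.005245 in DMT vs SHAM and 0.002165 in DMT vs SD, the latter being the smallest that 6 against 6 rats allow. Groups without overlap in DMT vs SD were found for 16.9% of all genes tested, and Ptprc was the only one of the 7. In bulk tissue, fewer cells of a type and less RNA per cell cannot be told apart.

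The macrophage gene Cd68 was also lower in DMT-treated rats than in SHAM rats. Cd68 ranged from 2.09 to 5.08 CPM (median 3.52) in SD rats, from 2.50 to 11.1 CPM (median 3.78) in SHAM rats and from 2.23 to 2.65 CPM (median 2.50) in DMT-treated rats. The groups overlapped at the low end, where SHAM rat 340 and SD rat 355 lay among or below the DMT-treated rats. Cd68 fell in DMT vs SHAM with a log2 fold-change of -1.003 (SE 0.29, fold 0.499, edgeR adjusted p=0.0191). Without SHAM rat 311, which had 11.1 CPM, the log2 fold-change was -0.65 and the call held (edgeR adjusted p=0.0439). In SHAM vs SD the log2 fold-change of Cd68 was 0.46 (SE 0.28, 95% interval -0.13 to 1.05, edgeR adjusted p=0.207), and without SHAM rat 311 it was 0.11 (adjusted p=0.707). In DMT vs SD the log2 fold-change of Cd68 was -0.54 (SE 0.30, 95% interval -1.16 to 0.08, edgeR adjusted p=0.175).

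Cd68 values rested on 42 to 280 counts per rat. The coefficient of variation among DMT-treated rats was 7.32%, below the 12.9% that counting error alone gives at this depth.

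Ccl2, the chemokine, moved in the same direction as Cd68. Ccl2 ranged from 2.03 to 3.12 CPM (median 2.29) in SD rats, from 1.67 to 6.82 CPM (median 2.90) in SHAM rats and from 1.33 to 2.41 CPM (median 1.96) in DMT-treated rats. SHAM rats 311 and 333, at 6.82 and 4.78 CPM, lay above all rats of the other groups, and all 6 DMT-treated rats were below the SHAM median. Ccl2 fell in DMT vs SHAM with a log2 fold-change of -0.86 (SE 0.26, fold 0.553, edgeR adjusted p=0.0279). The call was lost without any one of 4 rats, and the log2 fold-change was then -0.58 without SHAM rat 311, -0.76 without SHAM rat 333, -0.77 without DMT-treated rat 325 and -0.78 without DMT-treated rat 329 (edgeR adjusted p from 0.05507 to 0.0766). Ccl2 did not pass the test in SHAM vs SD (log2 fold-change 0.52, SE 0.26, edgeR adjusted p=0.125), and its log2 fold-change was 0.25 without SHAM rat 311 (adjusted p=0.391) and 0.64, a call, without SHAM rat 340 (adjusted p=0.0470). In DMT vs SD the log2 fold-change of Ccl2 was -0.33 (SE 0.28, 95% interval -0.91 to 0.24, edgeR adjusted p=0.372).

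The 7 genes thus held 3 calls in DMT vs SHAM, all lower (Ccl2, Cd68 and Ptprc), where 11.5% of all genes tested were called and 7.36% were called lower. The median log2 fold-change of the 7 was -0.68, beside -0.0040 over all genes tested. Since the 7 were chosen with earlier results of these data known, these values describe them and are not a test of enrichment. Of all genes called, 604 were higher and 1080 lower, a split that was 1428 to 1547 with no fold-change threshold and 211 to 250 when the threshold was tested in the model.

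**Figure D2:**
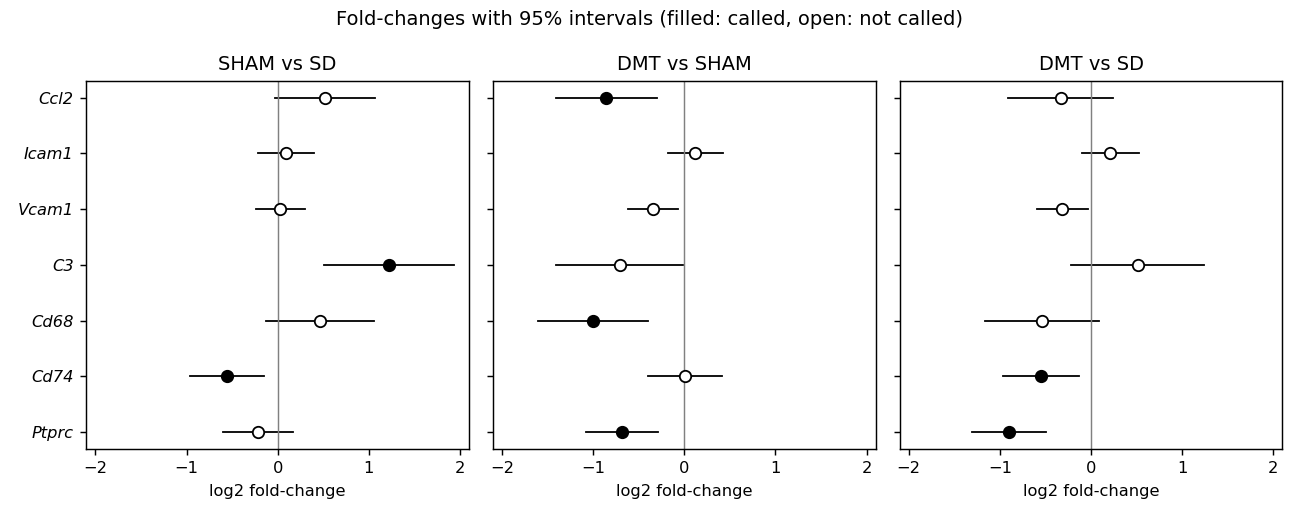
Log2 fold-change (x axis) of each gene in the 3 comparisons, with 95% intervals from the edgeR fit and filled points for calls. Ccl2, Cd68 and Ptprc were called lower in DMT vs SHAM, C3 was called higher and Cd74 lower in SHAM vs SD, and Cd74 and Ptprc were called lower in DMT vs SD.

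The adhesion molecules Icam1 and Vcam1 were not called in any comparison. Icam1 ranged from 31.4 to 36.1 CPM (median 32.0) in SD rats, from 21.4 to 49.9 CPM (median 30.6) in SHAM rats and from 32.6 to 42.9 CPM (median 37.7) in DMT-treated rats. The DMT-treated rats fell into 3 rats at 32.6 to 33.2 CPM and 3 rats at 42.2 to 42.9 CPM. The log2 fold-change of Icam1 was 0.09 in SHAM vs SD (95% interval -0.21 to 0.40), 0.12 in DMT vs SHAM (-0.18 to 0.42) and 0.21 in DMT vs SD (-0.10 to 0.53), with edgeR adjusted p from 0.292 to 0.648. Without SHAM rat 311 the value was -0.023 in SHAM vs SD and 0.24 in DMT vs SHAM, and without SHAM rat 340 it was 0.18 and 0.034.

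Vcam1 ranged from 17.7 to 23.2 CPM (median 20.02) in SD rats, from 14.8 to 30.0 CPM (median 18.8) in SHAM rats and from 14.3 to 18.1 CPM (median 16.3) in DMT-treated rats. All DMT-treated rats but rat 325 lay within the SHAM range, and 2 of them, rats 328 and 341, lay within the SD range. Vcam1 had a log2 fold-change of -0.34 in DMT vs SHAM (SE 0.13, edgeR adjusted p=0.0670) and of -0.32 in DMT vs SD (SE 0.13, edgeR adjusted p=0.0791), neither of which passed the test. The value of Vcam1 in DMT vs SHAM was -0.22 without SHAM rat 311 (edgeR adjusted p=0.173), and without SHAM rat 340 it was -0.41 and was called (edgeR adjusted p=0.0207). In SHAM vs SD its log2 fold-change was 0.03 (95% interval -0.24 to 0.30, edgeR adjusted p=0.880).

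The ratio of Icam1 to Vcam1 within a rat, which does not depend on library scaling, was higher in DMT-treated rats than in both other groups. Per kilobase, Icam1/Vcam1 was 1.54 to 2.04 (mean 1.82 ± 0.222) in SD rats, 1.51 to 2.92 (mean 1.903 ± 0.477) in SHAM rats and 2.41 to 2.80 (mean 2.59 ± 0.152) in DMT-treated rats. DMT-treated and SD rats did not overlap, and SHAM rat 333, at 2.92, was the one SHAM rat in or above the DMT range. The ratio was 1.43-fold higher in DMT vs SD (exact permutation test, two-sided, p=0.002165, adjusted p=0.0171) and 1.39-fold higher in DMT vs SHAM (exact p=0.009324, adjusted p=0.0325). It was 1.03-fold in SHAM vs SD (exact permutation p=0.824, adjusted p=0.880). These ratio tests covered all 21 pairs of genes in 3 comparisons, were adjusted over 63 tests and were added after the values of the genes had been seen. In each comparison 7 of the 21 pairs passed. Groups did not overlap for 5 pairs in DMT vs SHAM, 2 in DMT vs SD and 2 in SHAM vs SD. Pairs of other genes were not tested, so no share over all genes is given.

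Relative to Ptprc and Cd68, Icam1 was higher in DMT-treated rats than in SHAM rats. Icam1 itself was 1.09-fold in DMT vs SHAM and not called, whereas Ptprc was 0.623-fold, Cd68 0.499-fold and Ccl2 0.553-fold. Its ratios to these 3 genes in DMT vs SHAM thus mostly restate their falls and are not separate results about Icam1. Icam1/Ptprc per kilobase was 1.66 to 3.39 in SD rats, 2.41 to 3.16 in SHAM rats and 4.05 to 5.51 in DMT-treated rats. Every DMT-treated rat lay above every other rat, and the ratio was 1.72-fold higher in DMT vs SHAM (exact permutation p=0.0005828, the smallest that 7 against 6 rats allow, adjusted p=0.00918) and 2.09-fold higher in DMT vs SD (exact p=0.002165, adjusted p=0.0171). Icam1/Cd68 was 1.98-fold higher in DMT vs SHAM, with 5.79 to 8.41 in DMT-treated rats and 2.05 to 4.69 in SHAM rats (exact permutation p=0.0005828, adjusted p=0.00918). Ccl2/Icam1 was 0.535-fold in DMT vs SHAM, with 0.136 to 0.200 in DMT-treated rats and 0.253 to 0.461 in SHAM rats (exact permutation p=0.0005828, adjusted p=0.00918). By contrast, Cd68/Ptprc was 0.705 ± 0.0818 in DMT-treated rats and 0.825 ± 0.191 in SHAM rats, a difference that did not pass (0.868-fold, exact permutation p=0.1976, adjusted p=0.290). In SHAM vs SD, however, Cd68/Ptprc was 1.49-fold higher and passed (exact permutation p=0.008741, adjusted p=0.0325). Ccl2/Ptprc (1.54-fold, exact permutation p=0.003497, adjusted p=0.0220) and Ccl2/Cd74 (1.96-fold, exact permutation p=0.001166, adjusted p=0.0122) passed there too. SHAM and SD rats overlapped for Cd68/Ptprc and Ccl2/Ptprc, but not for Ccl2/Cd74. Ccl2, Cd68 and Ptprc were not called by themselves in SHAM vs SD, and Ccl2/Cd74 includes the fall of Cd74 (0.681-fold). Icam1/Cd74 was 1.075-fold in DMT vs SHAM and did not pass (exact permutation p=0.5425, adjusted p=0.633), and Ccl2/Cd68 was 1.06-fold (exact permutation p=0.5962, adjusted p=0.683).

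**Figure D3:**
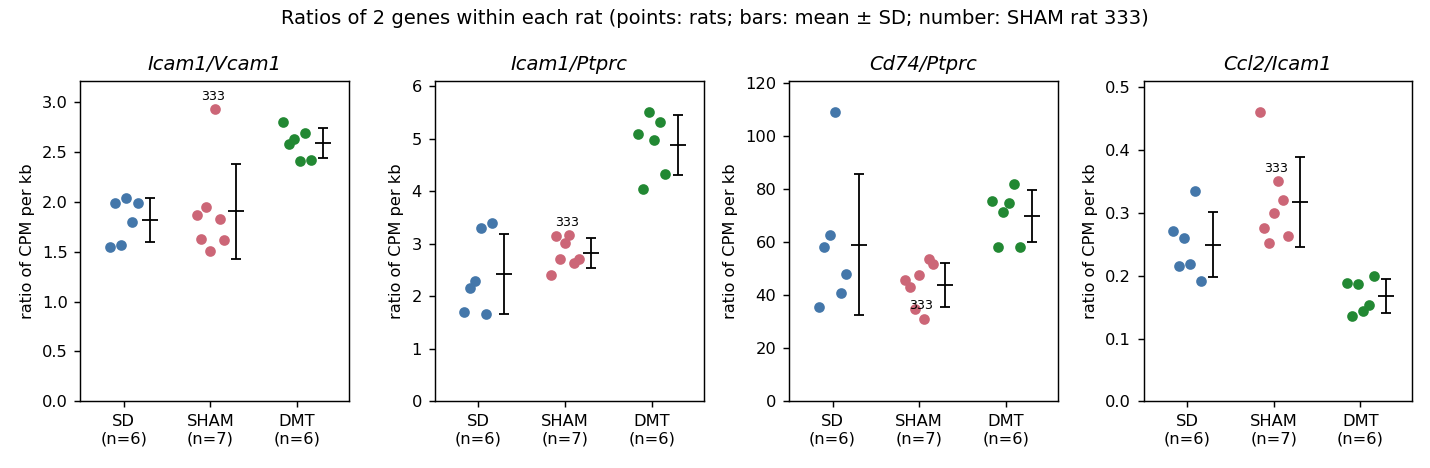
Ratios of CPM per kilobase of 2 genes within each rat (y axes, from 0) by group, with mean ± SD. Icam1/Ptprc was 4.05 to 5.51 in DMT-treated rats and 1.66 to 3.39 in all other rats, and SHAM rat 333 was the only SHAM rat within or above the DMT range for Icam1/Vcam1.

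Cd74, the invariant chain, was lower in both ZDSD groups than in SD rats. Cd74 ranged from 275 to 567.7 CPM (median 439) in SD rats, from 203 to 508 CPM (median 249) in SHAM rats and from 239 to 353 CPM (median 278) in DMT-treated rats. The groups overlapped, since SD rat 357 had 275 CPM and SHAM rat 311 had 508 CPM. Cd74 fell in SHAM vs SD with a log2 fold-change of -0.56 (SE 0.19, fold 0.681, edgeR adjusted p=0.0313) and in DMT vs SD with one of -0.55 (SE 0.20, fold 0.684, edgeR adjusted p=0.0423). The SD rats are shared by these comparisons. Between DMT-treated and SHAM rats the log2 fold-change of Cd74 was 0.01 (95% interval -0.40 to 0.41, edgeR adjusted p=0.988).

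Both Cd74 calls depended on single rats. In SHAM vs SD the call was lost without SD rat 354 or 355 or SHAM rat 315, 317, 321, 333 or 340 (log2 fold-change -0.54 to -0.45, edgeR adjusted p 0.05285 to 0.08988), and without SHAM rat 311 the log2 fold-change was -0.75. In DMT vs SD it was lost without SD rat 353, 354, 355 or 356 or DMT-treated rat 325, 328, 329 or 347 (log2 fold-change -0.55 to -0.45, edgeR adjusted p 0.05917 to 0.106).

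Relative to Ptprc, Cd74 was 1.604-fold higher in DMT-treated rats than in SHAM rats. Cd74 itself was 1.005-fold and Ptprc 0.623-fold in DMT vs SHAM, so this ratio restates the fall of Ptprc. Cd74/Ptprc per kilobase was 58.0 to 82.0 in DMT-treated rats and 31.2 to 53.7 in SHAM rats, without overlap (exact permutation p=0.0005828, adjusted p=0.00918). Cd68/Cd74 was 0.542-fold in the same comparison, also without overlap (exact permutation p=0.004079, adjusted p=0.0227). That ratio mostly restates the fall of Cd68 (0.499-fold).

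C3, the complement component, was higher in SHAM rats than in SD rats. C3 ranged from 19.6 to 32.7 CPM (median 27.1) in SD rats, from 23.0 to 106 CPM (median 55.8) in SHAM rats and from 22.0 to 89.8 CPM (median 27.1) in DMT-treated rats. All SHAM rats but rat 317 lay above every SD rat, and all DMT-treated rats but rat 329 lay between 22.0 and 34.0 CPM. C3 rose in SHAM vs SD by 1.22 on the log2 scale (SE 0.34, fold 2.33, edgeR adjusted p=0.0100), a size above that of 96.8% of genes tested. The call held when each rat was left out in turn, with log2 fold-changes of 1.03 to 1.37.

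Between DMT-treated and SHAM rats the log2 fold-change of C3 was -0.71 (SE 0.34, 95% interval -1.41 to -0.01, edgeR adjusted p=0.142). Without DMT-treated rat 329, whose C3 level was 89.8 CPM, it was -1.19 and was called (edgeR adjusted p=0.00559). In DMT vs SD the log2 fold-change was 0.51 (SE 0.35, 95% interval -0.22 to 1.24, edgeR adjusted p=0.275), and it was 0.03 without rat 329. The biological coefficient of variation of C3 was 0.408, above that of 96.6% of genes tested. The other genes described here lay above 68.9% (Vcam1) to 94.6% (Cd68) of genes tested, but these shares compare genes of all levels. The trend of the fit at the level of C3 was 0.122. Own value and trend were 0.312 and 0.264 for Ccl2, 0.344 and 0.242 for Cd68, and 0.161 and 0.138 for Vcam1. They were 0.182 and 0.123 for Icam1, 0.243 and 0.145 for Cd74, and 0.231 and 0.132 for Ptprc. All 7 genes thus lay above the trend, and C3 lay farthest above it. C3/Cd74 per kilobase was 3.23-fold higher in SHAM vs SD, without overlap (exact permutation p=0.001166, adjusted p=0.0122). That ratio combines the rise of C3 (2.33-fold) with the fall of Cd74 (0.681-fold).

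In SHAM vs SD, therefore, 2 of the 7 genes were called, C3 higher and Cd74 lower, where 18.3% of all genes tested were called. The median log2 fold-change of the 7 was 0.09, beside 0.0056 over all genes tested. In DMT vs SD, Cd74 and Ptprc were called, both lower, where 18.2% of all genes tested were called and 10.2% were called lower. The median log2 fold-change of the 7 was then -0.33, beside 0.0078 over all genes. As in DMT vs SHAM, these shares and medians only describe genes chosen with earlier results known.

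**Figure D4:**
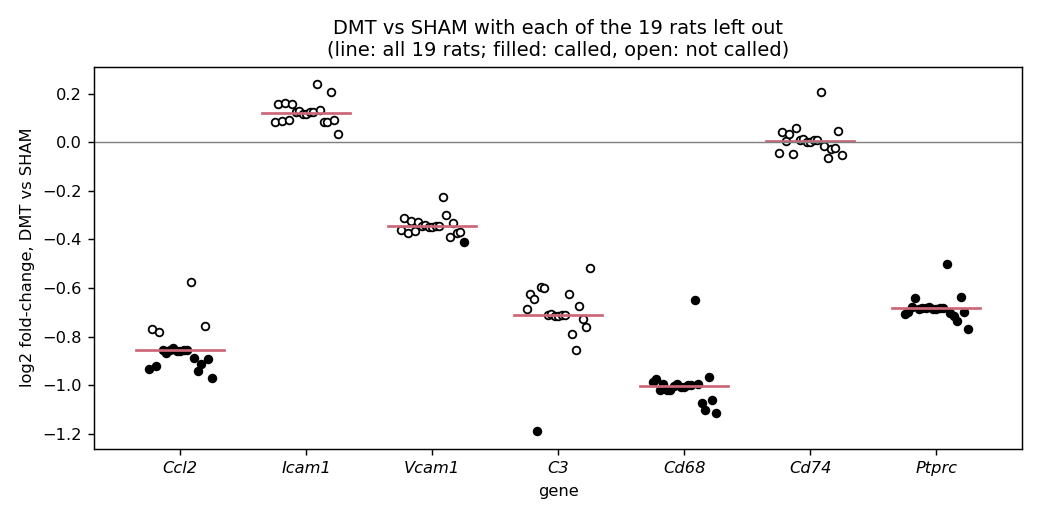
Log2 fold-change in DMT vs SHAM (y axis) when each of the 19 rats was left out in turn, with filled points for calls and a line for the value of all rats. Cd68 and Ptprc were called in all 19 fits and Ccl2 in 15, and C3 and Vcam1 were each called in 1.

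Rats of one group differed from each other in several of the genes at once. SHAM rat 311 was the highest SHAM rat for 6 of the 7 genes, and it was the highest for 13.3% of all genes tested. SHAM rat 340 was the lowest SHAM rat for 5 of the 7, beside 21.1% of all genes, yet it was the highest for C3 at 106 CPM. SHAM rat 333, which had the highest TMM factor (1.13), was the highest SHAM rat for 28.0% of all genes and for none of the 7.

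Correlations of deviations from the group means, in log2(CPM + 1) over 19 rats, were computed for 21 pairs with permutation within groups. Of these, 18 were positive and 8 passed Benjamini-Hochberg adjustment by Pearson's r, but 0 passed by Spearman's rho. The highest were Cd68 with Ptprc (r=0.87, permutation p=0.00022, adjusted 0.00147, rho=0.52, permutation p=0.0377, adjusted 0.132) and Ccl2 with Icam1 (r=0.87, permutation p=0.00028, adjusted 0.00147, rho=0.48, permutation p=0.0624, adjusted 0.164). Ccl2 with Cd68 had r=0.83 (permutation p=0.00017, adjusted 0.00147) and rho=0.63 (permutation p=0.00952, adjusted 0.0666), and Ccl2 with Ptprc had r=0.82 (permutation p=9e-05, adjusted 0.00147) and rho=0.63 (permutation p=0.00926, adjusted 0.0666). Without SHAM rats 311 and 340, the rats farthest from the median, r was 0.74, 0.73, 0.57 and 0.62 for these 4 pairs in that order.

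The other 4 pairs that passed by r were Icam1 with Cd68 (0.74), Vcam1 with Cd68 (0.68), Ccl2 with Vcam1 (0.68) and Icam1 with Ptprc (0.63). Without rats 311 and 340 these were 0.46, 0.27, 0.25 and 0.25, so that the last 3 rested on those rats. C3 had r from -0.15 to 0.12 with the other 6 genes, and none of these pairs passed. Without rat 311 these r were -0.38 to -0.04. Within groups they were -0.26 to 0.12 in SD rats, -0.081 to 0.33 in SHAM rats and -0.80 to -0.14 in DMT-treated rats. Values near 0 over all 19 rats therefore do not show that C3 varied independently. Cd68 with Cd74 had r=0.35, and -0.36 without rats 311 and 340. In SHAM rats alone r of Cd68 with Ptprc was 0.97, in SD rats 0.77 and in DMT-treated rats -0.091. Ccl2 with Icam1 had r of 0.96 in SHAM rats, -0.50 in SD rats and 0.81 in DMT-treated rats, and Icam1 with Ptprc had r of 0.94, -0.59 and 0.52 in that order.

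**Figure D5:**
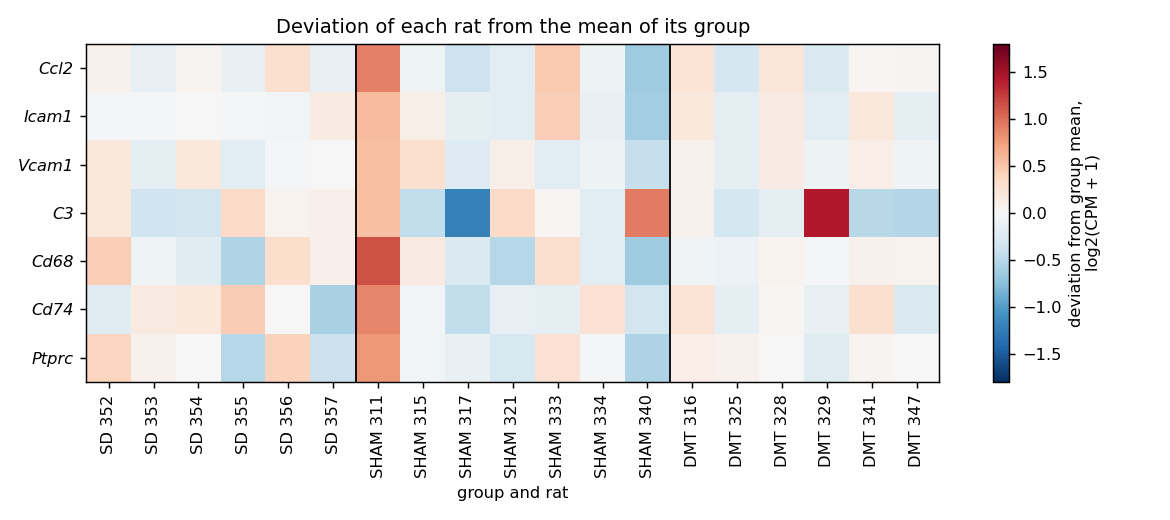
Deviation of each rat from its group mean in log2(CPM + 1) (colour) for the 7 genes (rows) and 19 rats (columns, by group). SHAM rat 311 was above its group mean in all 7 genes, SHAM rat 340 was below it in every gene but C3, and C3 in DMT-treated rat 329 was the largest deviation.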

How the data were processed

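RNA-seq of renal cortex was analysed in 19 of 21 deposited rats, and groups came from the labels. The authors deposited counts of read pairs per Ensembl gene, which are not normalized. By the headers and the study's methods, Trim Galore served for trimming, and the authors mapped reads to rn5 with STAR, and counted exonic fragments with featureCounts (1.6.4) on the reverse strand. Fragments of several positions or genes were left out by that program's default, which lowers counts of genes with close copies.

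The following was computed from these counts. Libraries under 1000000 counts (SHAM rats 343 and 348) were left out, which gave 7 SHAM rats. edgeR (4.0.16, in R 4.3.3) kept 14664 genes, all 7 members among them, by filterByExpr (minimum count 10, minimum total count 15), and TMM normalized the libraries. One quasi-likelihood fit of 3 groups gave SHAM vs SD, DMT vs SHAM and DMT vs SD. Calls needed a Benjamini-Hochberg adjusted p under 0.05 over all genes and a fold-change of 1.3 or more in either direction. Single genes and ratios were tested by exact permutation over rats, and correlations by 100000 permutations within groups. Python 3.11.15, numpy 2.4.6, scipy 1.17.1, pandas 2.3.3 and matplotlib 3.10.9 were used. Each library is a separate rat. Floors of 3 counts cover counting error only, whereas intervals of fold-changes come from the fit and include the spread between rats. That spread was estimated once per gene over the 3 groups, and SHAM rats had the largest coefficient of variation in 6 of the 7 genes. Intervals and p-values in DMT vs SD thus carry the spread of SHAM rats too.

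The genes named are the 7 members, in every comparison. Members and lists were chosen with earlier results of these data known. Lists of pathway genes and cell type markers needed symbols, which the files do not pair with identifiers, and were not analysed here. Symbols of the 7 genes came with the choice of members. The alternatives were all 21 libraries, DESeq2 (1.42.0) as test or for size factors, other filters, only the groups compared, other uses of the fold-change threshold, thinning to one total, exact permutation tests, and leaving out each rat.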

Additional observations from a re-analysis of the deposited data

Results flagged for a closer look

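Of 21 sets of values, 1 for each gene and group, 3 held a rat whose gap to its neighbours exceeded Dixon's 95% critical value, where about 1 in 20 sets would do so by chance. Icam1 in SD rat 357 was 36.1 CPM, whereas the other SD rats lay between 31.4 and 32.3 CPM. C3 in DMT-treated rat 329 was 89.8 CPM, whereas the other DMT-treated rats lay between 22.0 and 34.0 CPM. Cd68 in SHAM rat 311 was 11.1 CPM, whereas the other SHAM rats lay between 2.50 and 5.64 CPM.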

How the results depend on the processing

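Of 609 values of the 7 genes under alternatives, 561 kept their direction and stayed called or not called, 28 lost a call, 6 gained one and 14, none of them called, changed sign. The DESeq2 Wald test, DESeq2 size factors, thinning and the fit of all 21 libraries changed no call of the 7 genes. Vcam1 in DMT vs SHAM had a DESeq2 Wald test adjusted p of 0.0455, but its log2 fold-change of -0.35 fell short of the fold-change threshold. In DMT vs SD the edgeR adjusted p of Vcam1 was as low as 0.0345 when a rat was left out, again without a call. Dropping the fold-change threshold gave 5131, 2975 and 4682 calls in SHAM vs SD, DMT vs SHAM and DMT vs SD (2681, 1684 and 2663 as reported). With the threshold tested in the model (glmTreat), 810, 461 and 1091 genes were called. Of the 7 calls among these genes, that test kept Ptprc in DMT vs SD, and the others were lost at unchanged log2 fold-changes: C3 1.22 (adjusted p=0.0782) and Cd74 -0.56 (0.467) in SHAM vs SD, Ccl2 -0.86 (0.241), Cd68 -1.003 (0.151) and Ptprc -0.68 (0.283) in DMT vs SHAM, and Cd74 -0.55 (0.486) in DMT vs SD. In fits of the compared groups alone, edgeR lost Cd74 in SHAM vs SD (-0.55, adjusted p=0.0640) and Ccl2 in DMT vs SHAM (-0.86, 0.0546), and gained Cd68 in DMT vs SD (-0.53, 0.0394). Without a filter, Cd74 in DMT vs SD was -0.54 (edgeR adjusted p=0.0548), and with at least 10 counts in every library Cd74 in DMT vs SHAM was -0.0037. The exact permutation test, not adjusted, passed for Vcam1 (-0.30) and Cd68 (-0.37) in DMT vs SD, and Vcam1 in SHAM vs SD was -0.0017 on that scale. The cause of these changes was not tested.

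Leaving out each rat gave log2 fold-changes in SHAM vs SD of 0.25 to 0.64 for Ccl2, -0.023 to 0.18 for Icam1, -0.088 to 0.094 for Vcam1, 1.03 to 1.37 for C3, 0.11 to 0.59 for Cd68, -0.75 to -0.45 for Cd74 and -0.39 to -0.12 for Ptprc. In DMT vs SHAM the ranges were -0.97 to -0.58 for Ccl2, 0.034 to 0.24 for Icam1, -0.41 to -0.22 for Vcam1, -1.19 to -0.52 for C3, -1.11 to -0.65 for Cd68, -0.064 to 0.21 for Cd74 and -0.77 to -0.50 for Ptprc. In DMT vs SD they were -0.41 to -0.24 for Ccl2, 0.17 to 0.25 for Icam1, -0.36 to -0.28 for Vcam1, 0.033 to 0.63 for C3, -0.66 to -0.41 for Cd68, -0.64 to -0.45 for Cd74 and -0.99 to -0.81 for Ptprc. Of the 8 correlations that passed by r, those of 3 pairs turned negative over all 21 libraries, Ccl2 with Icam1 (-0.46), Ccl2 with Vcam1 (-0.37) and Cd68 with Ptprc (-0.069), where the 2 added libraries held 0 to 9 counts of Ccl2, Icam1, Vcam1, Cd68 and Ptprc. No paired analysis was possible because the rat numbers are not shared between groups.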
